A study of Rattus norvegicus with 12 samples.

Results

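The genes described here encode globins, the protein part of hemoglobin, and the enzymes that make and break down heme. They were chosen by name: Hbb, Hba-a1, Alas1, Alas2, Fech and Hmox1. Of these 6 genes, 4 had a probe under that name on the array, with 1 probe each (Hbb, Alas1, Alas2 and Hmox1, of 15445 genes named in all). Hba-a1 had no probe under its name, and Fech had a probe named Fech_predicted. A probe named LOC287167, which RefSeq lists as the alpha globin gene Hba-a3 with Hba-a1 among its synonyms, and one named MGC72973, the beta globin gene Hbb-b1 in RefSeq, were read beside them. Counts of members below are over the 4 genes that carried the chosen names.

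Liver RNA of Fischer 344 rats aged 12 weeks was compared on 12 two-colour oligonucleotide arrays, in 6 direct comparisons, each run on 2 arrays with the dyes exchanged. The tissue was from hypophysectomised (Hypox) males given growth hormone (GH) by 1 injection or by 2 injections, from Hypox males and Hypox females without GH, and from intact males and intact females. Each pool without GH held 3 to 4 livers, and the series' design gives the arrays of a pair separate pools. The labels do not tie pools to arrays, and the comparisons that share an RNA may share its pools. The pool with 1 injection held 4 livers taken 30, 60 or 90 min after it, the pool with 2 injections held 5 livers with injections 3 or 4 h apart, and each of these single pools was used on both of its arrays. RNA was taken from whole liver, so each pool holds every cell type of the organ and its blood. Hypophysectomy removes the pituitary gland and with it the hormones of the thyroid, adrenal and gonadal axes as well as GH. Per the labels, the treated groups received GH and no other hormone.

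Heme is built in steps that start and end in the mitochondrion. The first enzyme, 5-aminolevulinate synthase, sets the rate, and mammals have it as a pair of genes: Alas1 in every tissue, with high levels in liver, where cytochromes P450 use much of the heme, and Alas2 in erythroid cells, which fill themselves with hemoglobin. Ferrochelatase (Fech) inserts the iron in the last step. Heme oxygenase 1 (Hmox1) opens the heme ring, and is known in liver for its expression in Kupffer cells, which take up old red cells, and for its induction by heme and oxidative stress. In adult liver, globin and Alas2 transcripts are known mainly from blood reticulocytes in the vessels, since blood formation has moved to the marrow.

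The promoter windows of Hbb, Hbb-b1, Hba-a3 and Alas1 are shown because the probes of these 3 globin genes moved together on these arrays while Alas1 followed another pattern. Each runs 5′ to 3′ from 250 bases before to 50 after the annotated transcript start, from RefSeq on build GRCr8. Capitals mark CACCC boxes, CCAAT boxes and GATA words (GATA after A or T and before A or G), each on either strand.
Hbb (GRCr8 chr1:167663672-167663971, minus strand): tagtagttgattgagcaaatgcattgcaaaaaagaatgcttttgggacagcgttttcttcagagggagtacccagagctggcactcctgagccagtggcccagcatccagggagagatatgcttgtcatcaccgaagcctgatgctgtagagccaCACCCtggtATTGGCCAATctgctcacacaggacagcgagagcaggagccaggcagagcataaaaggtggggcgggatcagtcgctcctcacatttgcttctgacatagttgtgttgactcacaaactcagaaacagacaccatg
Hbb-b1 (GRCr8 chr1:167643471-167643770, minus strand): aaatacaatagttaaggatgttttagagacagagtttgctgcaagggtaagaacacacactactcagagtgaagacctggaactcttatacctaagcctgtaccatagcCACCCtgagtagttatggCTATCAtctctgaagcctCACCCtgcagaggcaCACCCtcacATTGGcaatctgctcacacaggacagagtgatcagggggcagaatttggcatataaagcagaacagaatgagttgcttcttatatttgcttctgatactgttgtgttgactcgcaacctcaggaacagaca
Hba-a3 (GRCr8 chr10:15816894-15817193, minus strand): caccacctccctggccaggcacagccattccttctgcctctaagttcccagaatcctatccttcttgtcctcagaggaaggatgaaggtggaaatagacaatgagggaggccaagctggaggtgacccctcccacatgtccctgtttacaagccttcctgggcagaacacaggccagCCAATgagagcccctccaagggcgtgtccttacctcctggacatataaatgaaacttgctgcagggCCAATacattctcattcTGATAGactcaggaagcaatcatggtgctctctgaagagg
Alas1 (GRCr8 chr8:115768593-115768892, minus strand): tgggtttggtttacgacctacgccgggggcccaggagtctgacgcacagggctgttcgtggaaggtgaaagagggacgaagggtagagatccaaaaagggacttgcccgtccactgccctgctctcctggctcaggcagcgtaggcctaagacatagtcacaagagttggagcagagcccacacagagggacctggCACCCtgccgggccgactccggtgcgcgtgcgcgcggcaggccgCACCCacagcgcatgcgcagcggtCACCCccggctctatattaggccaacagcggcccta
The Hbb window held 1 CACCC box and 2 CCAAT boxes, which lie side by side on opposite strands. The Hbb-b1 window held 3 CACCC boxes, 1 CCAAT box and 1 GATA word, and the Hba-a3 window held 2 CCAAT boxes and 1 GATA word. The Alas1 window held 3 CACCC boxes, with neither a CCAAT box nor a GATA word. Of all 33469 windows of this length, 54.9% held a CACCC box, 37.5% a CCAAT box and 30.3% a GATA word. These matches describe letters in the windows, and the arrays did not measure binding.

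Values below are log2 ratios with the RNA named first on top, ± the limma SE, with n = 2 arrays a comparison. A probe was called at a Benjamini-Hochberg adjusted p under 0.05 over all probes tested in that comparison. The share of probes well above background was 58.4% to 71.1% over the channels, and all 7 probes described here were so in every channel. No spot was saturated. Precision is set by how few arrays there are. The median log2 ratio over all genes tested lay between -0.0118 and -0.000232 in the 6 comparisons. Slide 1 held the 4 arrays with GH, and slides 2 and 3 each held 1 array of each comparison without GH, so the value of each array given below is also the value within its slide. Median centring in place of loess left 2 of the 4 members called in Hypox males over intact males and 0 in each other comparison.

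After hypophysectomy the Hbb, Hbb-b1 and alpha globin probes and both aminolevulinate synthases fell in both sexes. In Hypox males over intact males, 3 of the 4 members were called, all lower, where 37.5% of all probes tested were called. In Hypox females over intact females all 4 were called, 3 lower and Hmox1 higher, where 36.3% of all probes were called. Calls were common among all probes in both comparisons, so a call alone does not set the members apart. Hbb ranked 13 from the lowest of 11183 genes in the male comparison and 134 from the lowest of 10638 genes in the female one.

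Hbb encodes the adult beta chain of hemoglobin. Its log2 ratios were -4.00 and -3.39 on the 2 arrays of Hypox males over intact males, and -1.47 and -1.49 on those of Hypox females over intact females. All 4 arrays showed less Hbb in the Hypox RNA, and the male and female values did not overlap. The estimates were -3.69 ± 0.24 in males (12.9-fold lower, adjusted p = 2.61e-05, limma) and -1.48 ± 0.24 in females (2.78-fold lower, adjusted p = 0.0022, limma). Without the first array of each pair the female value was -1.27 and was not called (adjusted p = 0.0628, limma). In whole liver RNA, fewer cells of a type and less RNA per cell cannot be told apart.

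The other globin probes also had larger ratios in males. Hbb-b1 had -4.86 and -3.40 in Hypox males over intact males and -2.0 and -1.24 in Hypox females over intact females, with estimates of -4.13 ± 0.50 and -1.62 ± 0.50. The alpha globin probe had -3.32 and -2.0 in males and -1.67 and -0.87 in females, with estimates of -2.66 ± 0.33 and -1.27 ± 0.33. All 4 estimates were called lower, though the female ones of both probes were not called when either array was left out. Globin genes come in near-identical copies, the probe sequences are not used here, and which copies each probe reads is uncertain.

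Alas2, the erythroid form of the synthase, had -2.18 and -1.96 on the 2 arrays of Hypox males over intact males and -1.02 and -0.90 on those of Hypox females over intact females. The arrays of a pair lay close together and the sexes did not overlap. The estimates were -2.07 ± 0.08 (4.2-fold lower, adjusted p = 1.41e-06, limma) and -0.96 ± 0.08 (1.95-fold lower, adjusted p = 6.77e-05, limma). The Alas2 probe was dim, at a processed signal of 149 and 202 in Hypox males against 1030 on both arrays in intact males.

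Alas1, the form that every tissue uses, had -1.49 and -1.23 in Hypox males over intact males and -1.65 and -1.42 in Hypox females over intact females. The values of the sexes overlapped. The estimates were -1.36 ± 0.22 (2.56-fold lower, adjusted p = 0.00202, limma) in males and -1.53 ± 0.22 (2.89-fold lower, adjusted p = 0.00116, limma) in females. The Alas1 probe had processed signals of 41600 and 48100 in Hypox males against 108000 and 127000 in intact males. Fech_predicted, for the enzyme of the last step, had -0.86 and -0.84 in males and -0.72 and -0.60 in females. Its estimates of -0.85 ± 0.08 and -0.66 ± 0.08 were both called lower.

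**Figure D1:**
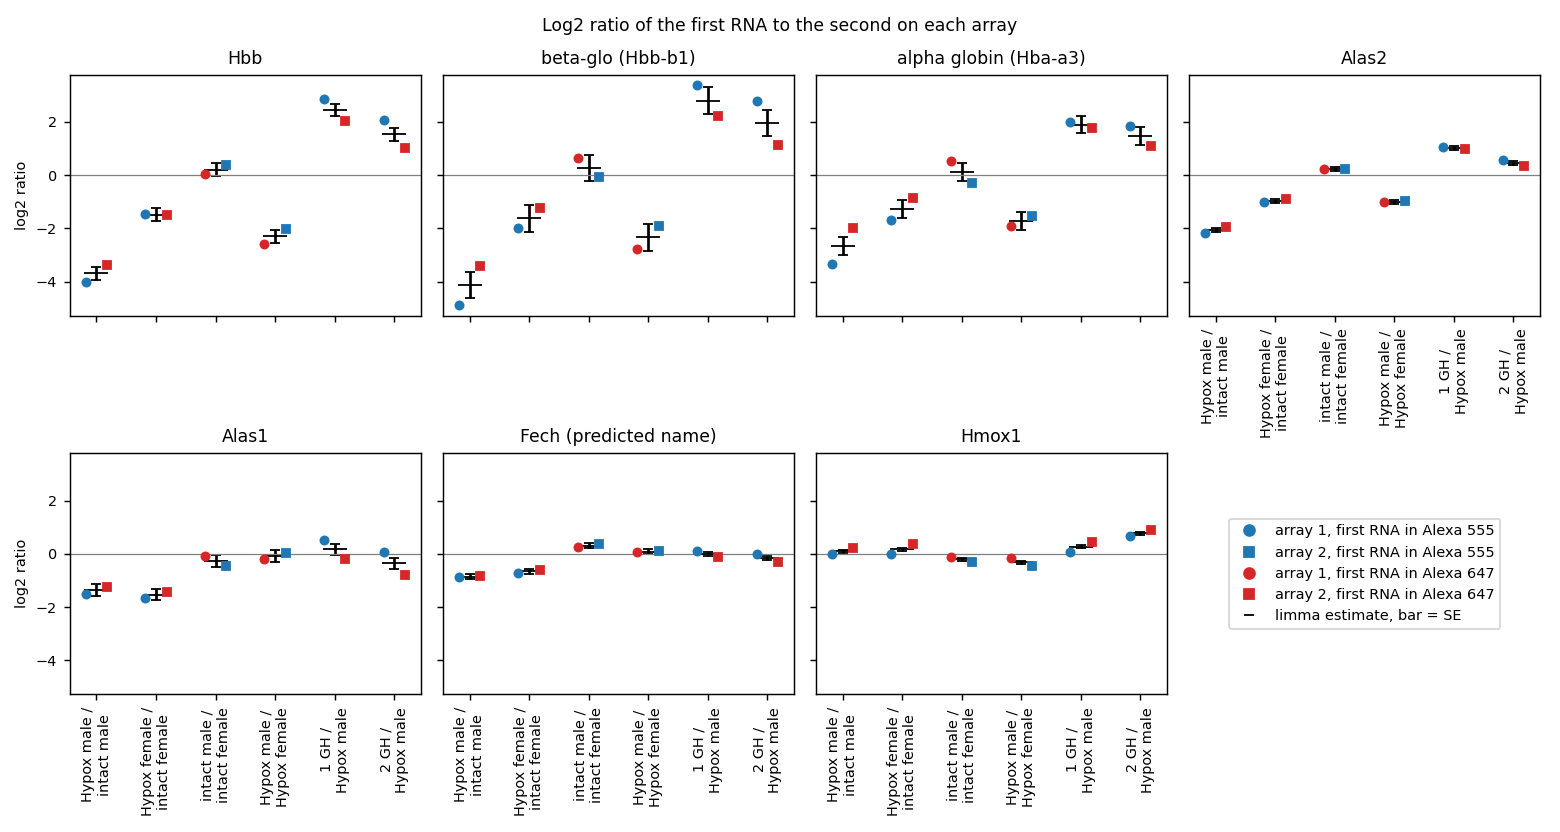
Log2 ratio of the first RNA to the second for 7 probes on the 12 arrays, 2 per comparison, with the limma estimate and its SE as a bar. Colour gives the dye of the first RNA. Hbb, Hbb-b1, alpha globin and Alas2 are below 0 in the comparisons of Hypox with intact rats and of Hypox males with Hypox females, and above 0 with GH. Alas1 lies at -1.23 or lower on all 4 arrays of Hypox over intact rats and between -0.78 and 0.54 on the others.

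The sexes differed in the size of the globin and Alas2 change. The sex difference was estimated as the mean of 2 differences. The first was Hypox over intact in males minus the same ratio in females. The second was males over females in Hypox rats minus the same ratio in intact rats. The mean was -2.36 ± 0.24 for Hbb (adjusted p = 0.000503, limma, 8 arrays) and -1.18 ± 0.08 for Alas2 (adjusted p = 4.71e-05, limma, 8 arrays). It was -1.61 ± 0.33 for alpha globin and -2.56 ± 0.50 for Hbb-b1, both called. The 2 differences use the same 4 RNAs, whose pools may be shared, while the fit took the 8 arrays as independent. These SEs and p-values may thus understate the spread between pools. Of the 4 members, 2 were called in this contrast, where 13.5% of all probes were called. Alas1 had 0.17 ± 0.22 and Fech_predicted -0.21 ± 0.08, and neither was called. Hmox1 had -0.10 ± 0.06 and was not called. The sums around the loop of the 4 RNAs, which would be 0 without error, were 0.287 for Hbb and 0.439 for alpha globin, above the 95th percentile of 0.19 for all probes, and 0.131 for Alas2.

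The direct comparisons between the sexes are part of the difference above, so they are not a separate test of it. In Hypox males over Hypox females, 3 of the 4 members were called, all lower, where 0.949% of all probes were called. Hbb had -2.58 and -2.02 (estimate -2.30 ± 0.24, adjusted p = 0.00572, limma) and Alas2 had -1.01 and -0.99 (estimate -1.0 ± 0.08, adjusted p = 0.00153, limma). Both Hbb arrays and both Alas2 arrays were thus on the same side of 0. Hbb ranked 3 from the lowest of 11141 genes there and Alas2 ranked 15. Alpha globin (-1.72 ± 0.33, adjusted p = 0.0634, limma) and Hbb-b1 (-2.33 ± 0.50, adjusted p = 0.0868, limma) had similar ratios and were not called. The Hbb call was lost when either array was left out (adjusted p = 0.156 without the first and 0.0816 without the second, limma). The Alas2 call was lost without the first array (adjusted p = 0.0575, limma), and its ratio was -1.62 on Agilent's processed signals, which carry no added offset.

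Between the intact sexes the erythroid probes were close to level. In intact males over intact females, 1 of the 4 members was called, Hmox1, where 15.5% of all probes were called. Hbb had 0.04 and 0.37 (estimate 0.20 ± 0.24) and Alas2 had 0.25 and 0.24 (estimate 0.24 ± 0.08, adjusted p = 0.0708, limma). Alas1 had -0.06 and -0.45 (estimate -0.26 ± 0.22). None of these was called. Fech_predicted was called higher in intact males, with 0.26 and 0.37 (estimate 0.32 ± 0.08, adjusted p = 0.0284, limma), a call lost when either array was left out.

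After GH the globin and Alas2 probes rose in Hypox males, and Alas1 was not called. With 1 injection, 3 of the 4 members were called, all higher, where 14.3% of all probes were called. With 2 injections, the 3 called members were the same genes (Hbb, Alas2 and Hmox1), again all higher, where 30.9% of all probes were called. Each GH pool is a single pool on both of its arrays, so SEs and p-values for GH cover the spread between arrays and Hypox pools, not that between GH-treated animals. Both comparisons use Hypox male RNA as the second RNA, so a low globin level there raises both ratios, and Hypox males over intact males and over Hypox females share it too.

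Hbb had 2.85 and 2.05 on the arrays with 1 GH injection over Hypox males, and 2.07 and 1.00 on those with 2 injections. All 4 arrays were above 0 and the arrays of the 2 comparisons overlapped. The estimates were 2.45 ± 0.24 (5.47-fold higher, adjusted p = 0.000621, limma) and 1.54 ± 0.24 (2.9-fold higher, adjusted p = 0.00164, limma). The value for 2 injections was not called without its first array (1.11, adjusted p = 0.0599, limma). The pool with 2 injections minus that with 1 was -0.91 ± 0.34 for Hbb and was not called.

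Alas2 had 1.06 and 1.00 with 1 injection and 0.58 and 0.35 with 2 injections. These did not overlap. The estimates were 1.03 ± 0.08 (2.04-fold higher, adjusted p = 0.000185, limma) and 0.47 ± 0.08 (1.38-fold higher, adjusted p = 0.00209, limma). Agilent's processed signals gave 0.98 for 2 injections, and without the first array the value was 0.32 (adjusted p = 0.0716, limma). The pool with 2 injections minus that with 1 was -0.56 ± 0.11 (adjusted p = 0.016, limma, 1 pool each, so over technical repeats of the GH samples). It was called, but not on the processed signals (-0.48, adjusted p = 0.138, limma) nor without either array. In that contrast 2 of the 4 members were called, Alas2 lower and Hmox1 higher, where 10.4% of all probes were called.

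The other globin copies moved in the same direction. With 1 injection, Hbb-b1 had 3.37 and 2.23 (estimate 2.80 ± 0.50) and alpha globin 2.01 and 1.78 (estimate 1.90 ± 0.33). With 2 injections, Hbb-b1 had 2.77 and 1.15 (estimate 1.96 ± 0.50) and alpha globin 1.84 and 1.08 (estimate 1.46 ± 0.33). All 4 estimates were called higher. The calls with 1 injection were lost when either array was left out, and those with 2 injections when the first was.

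Alas1 was on both sides of 0 after GH. It had 0.54 and -0.20 with 1 injection (estimate 0.17 ± 0.22, adjusted p = 0.666, limma) and 0.08 and -0.78 with 2 injections (estimate -0.35 ± 0.22, adjusted p = 0.285, limma). The arrays of each pair fell on different sides of 0. Fech_predicted had 0.12 and -0.11 with 1 injection and 0.01 and -0.32 with 2 injections, and was not called in either.

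Hmox1, read by 10 spots on each array, had the smallest changes after hypophysectomy of the 4 members. It had -0.01 and 0.20 in Hypox males over intact males (estimate 0.10 ± 0.06, not called) and 0.00 and 0.36 in Hypox females over intact females (estimate 0.18 ± 0.06, adjusted p = 0.0358, limma). It was lower in intact males than in intact females, with -0.12 and -0.29 (estimate -0.20 ± 0.06, adjusted p = 0.042, limma), and lower in Hypox males than in Hypox females, with -0.17 and -0.47 (estimate -0.32 ± 0.06, adjusted p = 0.0469, limma). These 3 calls were near the threshold and were lost under most of the other settings tried. On the processed signals the adjusted p was 0.0644 in Hypox females over intact females, 0.0763 between the intact sexes and 0.114 between the Hypox sexes (limma).

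With GH, Hmox1 had 0.09 and 0.46 after 1 injection and 0.68 and 0.88 after 2 injections. All 4 arrays were above 0, and the arrays with 2 injections were above those with 1. The estimates were 0.27 ± 0.06 (1.21-fold higher, adjusted p = 0.0149, limma) and 0.78 ± 0.06 (1.72-fold higher, adjusted p = 3.23e-05, limma). The pool with 2 injections minus that with 1 was 0.51 ± 0.08 (adjusted p = 0.00702, limma, again 1 pool each), opposite in sign to that of Alas2. The call after 1 injection and that of the difference were lost without either array (adjusted p between 0.097 and 0.252, limma), and median centring gave 0.41 after 2 injections.

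The levels of each RNA over the arrays put the members in order. Levels are log2 intensities after scaling between arrays, given per probe and not comparable between probes. For Hbb the 8 channels of Hypox males had a lowest value of 8.64, a median of 9.34 and a highest of 10.33, below every other RNA. The pool with 1 injection gave 11.78 and 11.8 on its 2 arrays, and the pool with 2 injections 10.76 and 10.86. Hypox females averaged 11.53 ± 0.37, intact males 13.25 ± 0.51 and intact females 13.01 ± 0.34 (SD, n = 4 channels each). Channels of an RNA are repeated readings that may share pools, so these SDs are not over 4 independent samples. The Hbb channels split by array number. Hypox females read 11.22 on both first arrays and 11.85 on both second arrays, and Hypox males 8.64 to 8.93 against 9.75 to 10.33. Intact males read 12.83 and 12.78 against 13.72 and 13.65, and intact females 12.69 and 12.75 against 13.34 and 13.28. The ranges of intact males and intact females overlapped, as did those of 1 injection and Hypox females.

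For Alas2, Hypox males had a lowest value of 7.10, a median of 7.33 and a highest of 7.82, and overlapped with the pool after 2 injections, at 7.69 and 7.82. Above them came Hypox females and the pool after 1 injection, which overlapped, then intact females, and intact males at the top. For Alas1 the intact males (16.22 ± 0.21) and intact females (16.47 ± 0.23, SD, n = 4 channels each, again not independent) overlapped. Both lay above the other 4 RNAs, whose ranges overlapped between neighbours in the order. For Hmox1 the pool with 2 injections stood highest, at 11.52 and 11.55, above all others, whose highest value was 10.9.

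**Figure D2:**
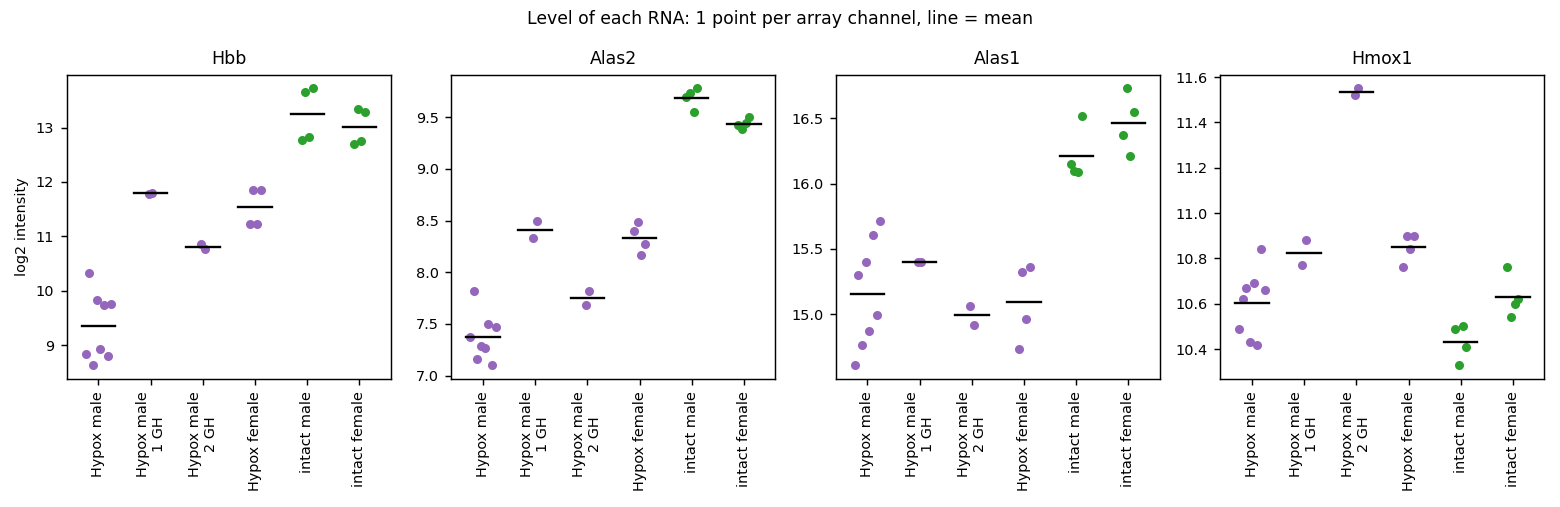
Log2 intensity of 4 members in each RNA, 1 point per array channel (8 for Hypox males, 2 for each GH pool, 4 for each other RNA), with the mean as a line. Hbb and Alas2 are lowest in Hypox males and in between with GH and in Hypox females, whereas Alas1 separates intact from Hypox RNA and Hmox1 is highest with 2 GH injections.

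Of 13 listed globin genes, 9 had a probe under their current symbol, Hba-a3 not among the list. Of 8 tested in Hypox males over intact males 1 was higher and 2 lower (median -0.14), close to the 19.9% and 20.7% of all genes. Of 7 tested in Hypox females over intact females 1 was higher and 4 lower (median -0.20), against 18.5% and 20.5% of all genes. The one that rose was Cygb, the cytoglobin of stellate cells, with 0.51 in males and 0.41 in females. With 1 GH injection 4 of 8 were higher (median 0.24), against 8.94% of all genes: Hbb, Hbb-b1, the embryonic Hbe1 (0.44) and the muscle globin Mb (0.42).

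The erythroid and the general form of the synthase were set against each other within each array, where both probes see the same pair of RNAs. The log2 ratio of Alas2 minus that of Alas1 was -0.70 and -0.73 in Hypox males over intact males and 0.62 and 0.52 in Hypox females over intact females. In males the ratio of the erythroid form lay further below 0 than that of the general one, and in females less far, on both arrays each. The same difference was -0.81 and -1.02 in Hypox males over Hypox females, 0.52 and 1.20 with 1 GH injection, 0.51 and 1.14 with 2 injections, and 0.31 and 0.69 in intact males over intact females. For Hbb minus Alas1 the values were -2.51 and -2.16 in Hypox males over intact males, against 0.18 and -0.07 in Hypox females over intact females. These are descriptions with no test.

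Over the 12 arrays, the log2 ratio of Hbb had a Pearson correlation of 0.98 with that of Alas2, 0.99 with Hbb-b1 and 0.977 with alpha globin, against 0.646 with Alas1 and 0.445 with Hmox1. Alas1 correlated with Fech_predicted at 0.871. The arrays share RNAs and come in dye-swapped pairs, so these are descriptions over n = 12 arrays that are not independent.

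**Figure D3:**
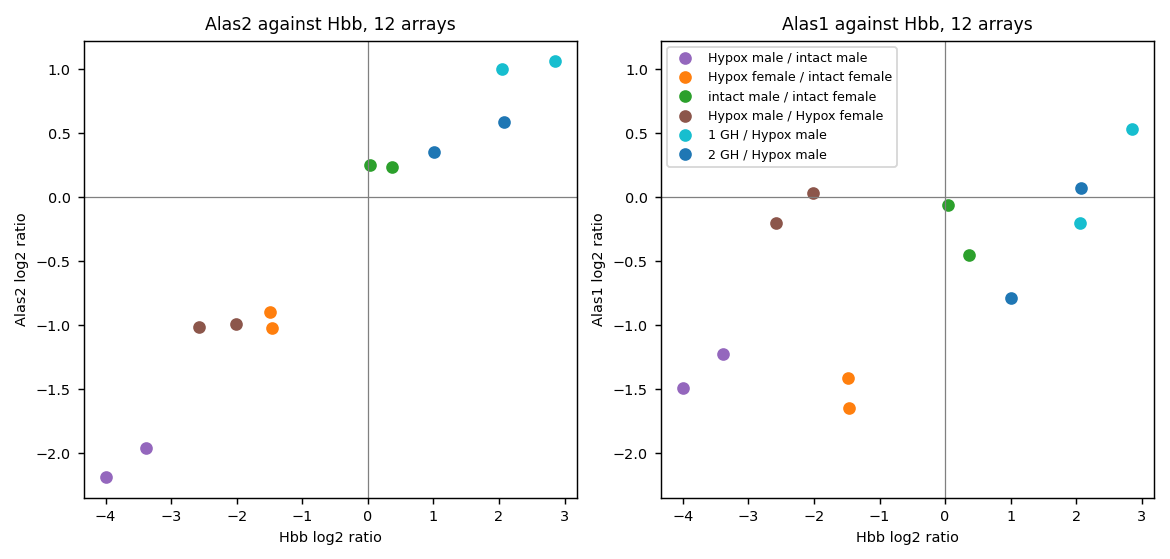
Log2 ratio of Alas2 (left) and Alas1 (right) against that of Hbb on the 12 arrays, coloured by comparison. Alas2 follows Hbb along a line through all comparisons, with a Pearson correlation of 0.98, while Alas1 stays between -0.78 and 0.54 in the comparisons that do not set Hypox against intact rats, with a correlation of 0.646.

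Among 1085 genes tested in all 6 comparisons with an absolute log2 ratio of at least 1 in some comparison, those most like Hbb over the 12 arrays were Hbb-b1, Alas2 and Hba-a3, followed by Slc16a11 (0.963), Slc13a3 (0.962), Igfbp4 (0.951), Gdpd1 (0.937) and Ccnd1 (0.932). Slc13a3, a carrier of dicarboxylates, had -1.60 in Hypox males over intact males and 1.39 with 1 GH injection. Ccnd1, the cell cycle protein cyclin D1, had -1.59 in Hypox males over intact males, and its 0.56 with 1 GH injection was not called. Those most like Alas1 were Fuom (0.971), Stard5 (0.962), Zdhhc2 (0.959), Apmap (0.958) and Rin3 (0.952). Zdhhc2, an enzyme that attaches palmitate to proteins, had -1.28 in Hypox males over intact males and -1.51 in Hypox females over intact females.

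Of the 9 listed genes of heme synthesis, Alas1, Alas2 and Fech_predicted included and all tested, 1 was higher and 6 lower in Hypox males over intact males (median -0.22), where 19.9% of all genes were called higher and 20.7% lower. In Hypox females over intact females 1 was higher and 5 lower (median -0.33), where 18.5% of genes were called higher and 20.5% lower. None of the other steps had a ratio as large as that of the 3 genes above. The gene that rose was Alad, which joins 2 molecules of aminolevulinate to porphobilinogen, with 0.43 ± 0.06 in males and 0.56 ± 0.06 in females. Ppox, the enzyme before ferrochelatase, fell with -0.22 and -0.34, and Cpox, the one before that, fell in males with -0.46, while its -0.33 in females was not called. Uros and Urod, which close and trim the ring, were not called in either sex.

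After GH, Alad was lower with 1 injection (-0.27) and with 2 injections (-0.43), opposite to its sign after hypophysectomy. With 1 injection 1 of the 9 steps was higher (Alas2) and 1 lower (median -0.06), where 8.94% of genes were called higher and 7.32% lower. With 2 injections 1 was higher and 2 lower (median -0.20), where 18.2% were called higher and 18.6% lower.

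**Figure D4:**
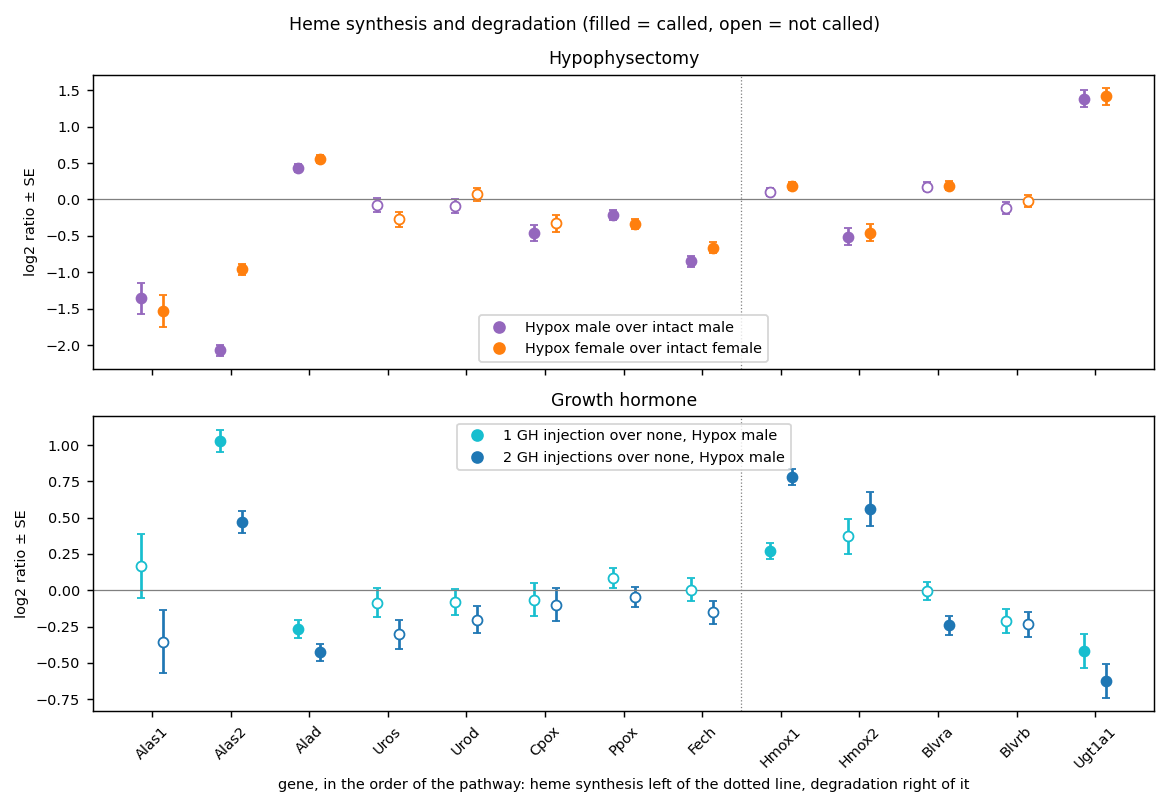
Log2 ratio ± SE of named genes of heme synthesis and degradation, in pathway order, for hypophysectomy in each sex (top) and for GH in Hypox males (bottom). Filled points were called and open points were not. Alas1 is low in both sexes after hypophysectomy, Alas2 lower in males (-2.07) than in females (-0.96), Alad is above 0, and only Alas2 and Hmox1 of the members shown are called higher with GH at both numbers of injections.

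Helpers of the pathway were lower with 2 GH injections. Of 12 tested genes for mitochondrial import, iron-sulfur clusters and export, 8 were lower and 0 higher with 2 injections (median -0.38), where 18.6% of genes were called lower. Abcb6, a porphyrin carrier, had -0.66, the mitochondrial carrier Slc25a39 -0.57 and the carrier of glycine Slc25a38 -0.47. In Hypox males over intact males 2 were higher and 4 lower (median -0.16), where 19.9% of genes were called higher and 20.7% lower. These were led by Tmem14c (-0.75), which carries porphyrin into the mitochondrion.

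In heme degradation, Hmox2, the form of heme oxygenase that cells keep at a steady level, fell with -0.51 in Hypox males over intact males and -0.46 in Hypox females over intact females, and was higher with 2 GH injections (0.56). Ugt1a1, which couples bilirubin to glucuronic acid for bile, rose with 1.38 in males and 1.42 in females and was lower with 1 injection (-0.42) and with 2 injections (-0.62). Por, the reductase that feeds electrons to heme oxygenase and the cytochromes P450, fell with -0.58 and -0.38 after hypophysectomy. Blvra, a biliverdin reductase, was higher in Hypox females (0.19) and lower with 2 injections (-0.24), and Blvrb was not called in any of these 4 comparisons. Of the 6 listed genes, 1 was higher and 2 lower in Hypox males over intact males (median -0.01), and 3 were higher and 2 lower in Hypox females over intact females (median 0.08). Of all genes, 19.9% were higher and 20.7% lower in males and 18.5% higher and 20.5% lower in females.

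Genes for proteins that bind or carry heme and hemoglobin were mostly higher with 1 GH injection. Of 9 tested genes for scavenging and transport, 5 were higher and 1 lower with 1 GH injection (median 0.35), and 3 were higher and 2 lower with 2 injections (median 0.12). Of all genes, 8.94% were higher and 7.32% lower with 1 injection and 18.2% higher and 18.6% lower with 2 injections. The counts with 2 injections thus lie near the shares of all genes. Hpx, which binds free heme, had an estimate of 0.52 with 1 injection, where its arrays gave -0.21 and 1.26, and 1.10 with 2 injections, where they gave 0.43 and 1.78. Hp, which binds free hemoglobin, had 0.35 with 1 injection from arrays at -0.53 and 1.24. The arrays of both genes lay on different sides of 0 with 1 injection, and the estimates come from a fit with a dye term. The heme and folate carrier Slc46a1 had -2.34 in Hypox males over intact males, -1.16 in Hypox females over intact females, 1.20 in intact males over intact females, and 1.14 and 1.25 with 1 and 2 GH injections, all called.

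Of the listed heme sensors and regulators of Alas1 or Hmox1, 8 were higher in each sex after hypophysectomy. Of 12 tested, 8 were higher and 0 lower in males (median 0.33), and of 11 tested, 8 were higher and 0 lower in females (median 0.21). Of all genes, 19.9% were higher and 20.7% lower in males and 18.5% higher and 20.5% lower in females. Nr1d1, a heme-binding repressor of the circadian clock, had 1.22 in males and 1.78 in females, and its relative Nr1d2 1.31 and 1.42. Nr1i3, the receptor CAR, which induces Alas1 along with drug-metabolising enzymes, had 0.62 and 1.20, and was lower with 1 GH injection (-0.77) and 2 injections (-1.78). Nfe2l2, the NRF2 factor that induces Hmox1, had 0.25 in males, 0.18 in females and 0.61 with 2 injections. Of 7 tested NRF2 targets other than Hmox1, 2 were higher and 1 lower with 2 injections (median 0.01), where 18.2% of genes were higher and 18.6% lower. Txnrd1 (1.08) and Osgin1 (1.08) rose while Gclc (-1.22) fell.

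Of 16 iron genes tested, 5 were higher and 3 lower in Hypox males over intact males (median -0.10), and 2 were higher and 5 lower in Hypox females over intact females (median -0.15). Of all genes, 19.9% were higher and 20.7% lower in males and 18.5% higher and 20.5% lower in females, so these counts do not set the iron genes apart. Hamp, which encodes the iron hormone hepcidin, rose with 2.23 in males and 1.70 in females, and was higher with 2 GH injections (1.27) but not called with 1 injection (-0.64). Ireb2, which controls translation of Alas2 and ferritin through iron-responsive elements, fell with -1.27 and -0.89, and rose with 0.50 after 1 injection and 1.10 after 2. Cp, the copper protein that oxidises iron, rose with 0.78 and 0.77. Tfrc, the transferrin receptor, had 0.27 in Hypox males over intact males, -0.33 in Hypox females over intact females and 0.36 in Hypox males over Hypox females, all called. The probe for Epo, the hormone of red cell formation, was not tested in any comparison because it was not well above background. Of 6 tested genes of erythropoietin and its signal, 1 was higher and 1 lower in males (median 0.09), near the 19.9% and 20.7% of all genes. In females 3 of 6 were higher (median 0.19), against 18.5% of all genes.

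Of 35 listed markers of erythroid cells other than globins and Alas2, 30 had a probe and 20 were tested in Hypox males over intact males, with 5 higher and 8 lower (median -0.07), where 19.9% of all genes were higher and 20.7% lower. In Hypox females over intact females 5 were higher and 8 lower of 19 tested (median -0.03), where 18.5% of all genes were higher and 20.5% lower. In males the largest were Car2 (-1.66), a carbonic anhydrase that other cells use too, Epb42 (0.85), Ahsp (-0.83), the chaperone of free alpha globin, and Hemgn, whose probe was not well above background in Hypox males on either of these arrays and was at least 1.67-fold lower. Ahsp had -0.54 in females, and its 0.14 and -0.11 with 1 and 2 GH injections were not called. In females Tmod1 (-1.11) and the anion exchanger Slc4a1 (-1.04) were lower and the carbonic anhydrase Car1 (0.89) was higher. In Hypox males over Hypox females limma called 0 of 20, where 0.949% of all probes were called. Of these 20, 4 had an unadjusted p under 0.05. With so few calls among all probes, a count of 0 does not set these markers apart.

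With 1 GH injection 1 of 19 tested erythroid markers was higher, Hemgn with 0.23, whose probe was well above background in Hypox males on 1 of these 2 arrays. Another 3 were lower, Car1 (-0.78), Gypc (-0.65) and Bnip3l (-0.26), where 8.94% of all genes were higher and 7.32% lower. With 2 injections 1 of 23 was higher and 5 lower (median -0.04), where 18.2% of all genes were higher and 18.6% lower. The summed intensity of the 30 probes ranged from 28800 to 33000 in Hypox males against 29300 to 29600 in intact males, and from 25500 to 28100 with 1 GH injection. Sums here and below add the intensities of unlike probes, so bright probes weigh most, and they do not measure the number of cells. The probes for Sptb, Ank1 and Ube2o were not above background in any channel, and those for Gata1 and Rhag were not tested in any comparison. The part of erythroid cells in the globin and Alas2 ratios was not tested.

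Markers of other blood and liver cells moved with some of these comparisons. Platelet markers were lower after hypophysectomy, 3 of 5 tested in males (median -0.48) and 3 of 4 in females (median -0.51), and 3 of 6 were higher with 1 GH injection (median 0.20). Of all genes, 20.7% were lower in males, 20.5% lower in females and 8.94% higher with 1 injection. Pf4, a chemokine of platelets, had -1.02 in males, -0.84 in females and 0.95 with 1 injection. Their summed intensity was 930 to 1030 in Hypox males against 1460 to 1510 in intact males, and 1420 to 1440 with 1 injection. Of 5 tested in Hypox males over Hypox females limma called 0, where 0.949% of all probes were called, and 1 had an unadjusted p under 0.05. This count does not set the platelet markers apart either.

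Macrophage and Kupffer cell markers were higher with 1 GH injection, 7 of 9 (median 0.30), and lower in Hypox males than in Hypox females, 4 of 9 (median -0.28), where 8.94% of genes were called higher in the one and 0.619% lower in the other. Vsig4 had 0.46 and -0.51 in these comparisons and the Kupffer cell lectin Clec4f 0.44 and -0.41. Their summed intensity was 98500 to 101000 with 1 injection against 71500 to 84200 in Hypox males, and 89100 to 100000 in Hypox females. With 2 injections limma called 0 of 9, where 18.2% of genes were called higher and 18.6% lower, and 1 had an unadjusted p under 0.05. Between intact males and intact females, 7 of 9 were lower in males (median -0.28), against 8.56% of all genes.

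Leukocyte markers were higher after hypophysectomy, 8 of 11 in males (median 0.38) and 7 of 11 in females (median 0.27), where 19.9% and 18.5% of all genes were higher, led by S100a9 (1.07) and S100a8 (0.96) in males. With 1 GH injection 2 of 11 were higher and with 2 injections 3 of 11, against 8.94% and 18.2% of all genes. Their summed intensity was 6710 to 7960 in Hypox males, 10100 on both arrays with 1 injection and 12000 to 13600 with 2 injections, and 4470 to 5190 in intact males. Endothelial markers were higher after hypophysectomy in 5 of 7 tested in males and 5 of 6 in females, against 19.9% and 18.5% of all genes. Hepatocyte markers moved both ways, with 2 higher and 3 lower of 10 tested in males, where 19.9% of all genes were higher and 20.7% lower. The part of these cells in the ratios of the members was not tested.

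**Figure D5:**
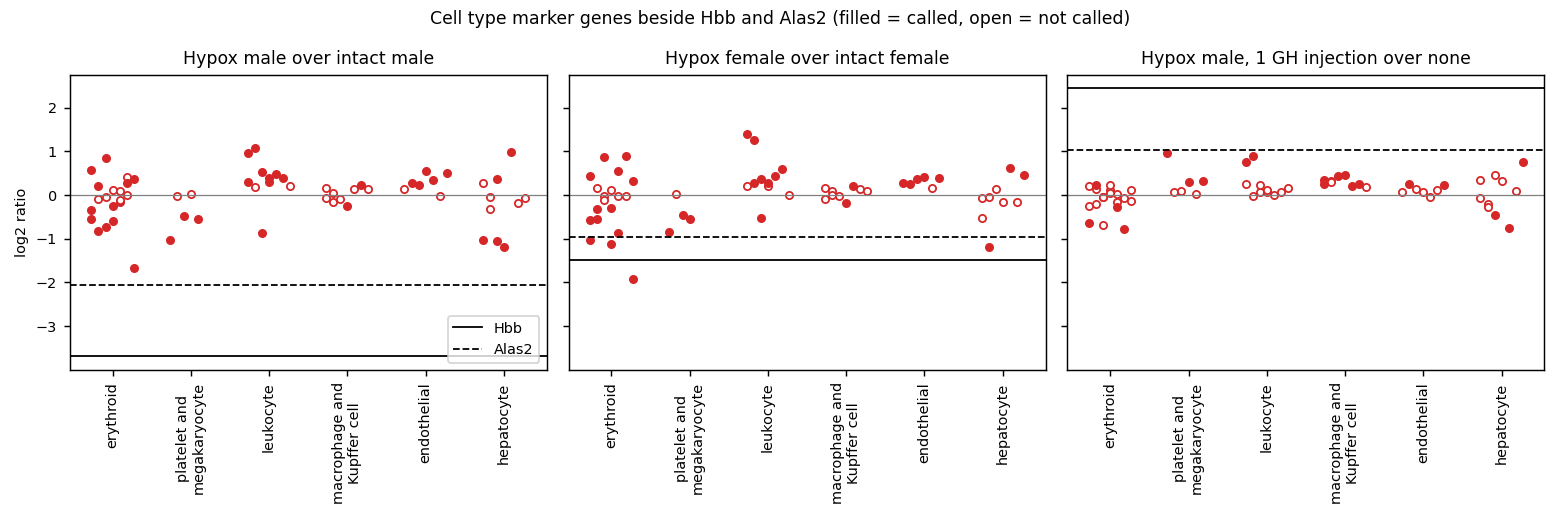
Log2 ratios of tested marker genes of 6 cell types in 3 comparisons, each point a gene (filled where called), with the ratios of Hbb (solid line) and Alas2 (dashed line). In Hypox males over intact males every marker lies above the Alas2 line at -2.07, and with 1 GH injection every marker lies below the Alas2 line at 1.03. In Hypox females over intact females the erythroid markers Tmod1 and Slc4a1 lie below the Alas2 line at -0.96.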

How the data were processed

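Liver RNA was hybridised in dye-swapped pairs to 12 arrays read with Agilent Feature Extraction 9.1.3.1, per the file headers. The deposited scanner files hold spot intensity values for both dyes and the authors' log10 ratio, which was not used for the results. The deposited value table holds log2 ratios of channel 2 over channel 1, judged by comparison with the processed signals. Spot intensities were background-corrected (normexp, offset 50) and loess-normalised with limma 3.58.1 in R 4.3.3, with control and outlier spots at weight 0. Spots of a probe were averaged. One linear model with 6 comparisons and a dye term was fitted over the 12 arrays (5 residual degrees of freedom). A probe entered the test of a comparison if either RNA exceeded background clearly on the pair of arrays (29006 of 41012 probes). Adjusted p-values are Benjamini-Hochberg over all probes tested in a comparison, and a call is one under 0.05. Gene lists use the brightest probe of a gene, named through RefSeq by accession (10735 probes), symbol (5506) or synonym (3718). The text names all members and, from each list, up to 4 called genes a comparison with the largest ratios. Likeness used genes with a ratio of at least 1 on the log2 scale. The members and lists were chosen with earlier results of these data known. Steps were tested on simulated data. The number of independent pools is small, the GH pools were used on both arrays, and p-values there do not cover the spread between GH-treated animals. The label of 1 array with 1 GH injection leaves out GH among its characteristics, and its title was used. Some listed genes are counted in their lists but not reported here by name.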

Additional observations from a re-analysis of the deposited data

Results flagged for a closer look

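The effect of hypophysectomy differed between males and females by a test of the difference itself for 4 probes. The estimate is the mean described above, which also uses the direct comparisons between the sexes. On the log2 scale it was -2.36 for Hbb (adjusted p = 0.000503, limma), -1.18 for Alas2 (adjusted p = 4.71e-05, limma), -1.61 for alpha globin (adjusted p = 0.0151, limma) and -2.56 for Hbb-b1 (adjusted p = 0.012, limma). Each was lower in the male comparison on both arrays. The arrays share RNAs and may share pools, but were fitted as independent, so these p-values may understate the spread between pools.

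The pools with 2 injections and with 1 differed for 2 members. There is 1 pool for each, hybridised on 2 arrays, and the SE comes from the residuals of all 12 arrays. The test does not cover the spread between GH-treated animals and cannot show that the effect of GH differs between animals. The pool with 2 injections minus that with 1 was -0.56 for Alas2 (adjusted p = 0.016, limma) and 0.51 for Hmox1 (adjusted p = 0.00702, limma), and neither was called when either array was left out.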

How the results depend on the processing

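Of 658 values of the 7 probes under other settings, 547 kept their direction and side of the threshold, 94 were no longer called, 5 were newly called and 12 changed sign. Median centring of each array left 2 of the 4 members called in Hypox males over intact males and 0 in the other comparisons and both differences. It called 345 of all probes in Hypox males over intact males, against 9737 with loess. Between the intact sexes the single member called became 0 with the processed signals, offset 10, no filter on dim probes, the replicate block, slide as a fixed term (chosen after seeing the data), no dye term or the 2 arrays alone, and 2 with 1 coefficient for each RNA. The 2 arrays alone called 0 members in Hypox males over Hypox females and 1 with 2 GH injections. For 2 injections against 1, the processed signals and the fit without a dye term called 1 each. The labels do not tie pools to arrays, so they do not say whether replicate numbers pair the samples. For Hbb, Hypox male levels followed the number, at 8.64 to 8.93 on arrays numbered 1 and 9.75 to 10.33 on those numbered 2. This held with Hypox male RNA in either dye. It also held on slide 1, with 8.933 and 8.795 against 9.746 and 9.759. Whether same-numbered arrays share a pool was not tested. Residuals of same-numbered arrays correlated between -0.67 and 0.842, with 6 of 15 pairs over 0.1. That count leaves out negative correlations. Hypox males over intact males had 0.842 with Hypox males over Hypox females, -0.67 with 1 injection and -0.663 with 2 injections. All of these comparisons use Hypox male RNA, on the opposite side of the ratio with GH. In the 4 comparisons without GH the number is also the slide, and the correlations there lay between -0.464 and 0.842. With the replicate block the members called were 3, 3, 0, 2, 3 and 3 in the 6 comparisons and 2 in each difference. It moved Hmox1 to an adjusted p of 0.0519 in Hypox females over intact females, 0.0637 between the intact sexes and 0.0869 between the Hypox sexes, and Hbb-b1 to 0.0563 in Hypox females over intact females (limma). No other call of the 7 probes changed with the block. Leaving out 1 array of each pair called 3 in Hypox males over intact males, 2 to 3 in females, 0 between the intact sexes, 0 to 1 between the Hypox sexes, 2 with 1 injection, 1 to 3 with 2 injections, 2 to 3 for the sex difference and 0 for 2 injections against 1. For the sex difference that fit has 1 residual degree of freedom, from GH arrays.

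Counts over all probes moved by over 1.5 times as well. Median centring called 370, 261, 7, 0 and 75 probes in the other comparisons and 118 and 0 for the differences, against 8835, 3981, 247, 3764, 8773, 3220 and 2720. The 2 arrays alone called 2687, 3648, 807 and 6 in Hypox males over intact males, with 2 injections, with 1 injection and between the Hypox sexes. The fit with 1 coefficient for each RNA called 1014 between the Hypox sexes and 6346 between the intact sexes. Without a dye term the counts were 83 between the Hypox sexes, 2106 with 1 injection, 2600 between the intact sexes, 1889 for the sex difference and 1228 for 2 injections against 1. Between the Hypox sexes the processed signals called 115 and the replicate block 143. Leaving out an array gave 5649 to 8955 in Hypox males over intact males, 3582 to 4156 in females, 1292 to 1448 between the intact sexes, 4183 to 4870 with 2 injections, 22 to 46 between the Hypox sexes, 558 to 629 with 1 injection, 83 to 201 for 2 injections against 1 and 9689 to 9889 for the sex difference.

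Every value that changed sign was small and not called in the report. With median centring Hbb was -0.071 and alpha globin -0.14 between the intact sexes, Hmox1 0.036 for the sex difference, and Fech_predicted -0.11 between the Hypox sexes and -0.056 with 1 injection. Fech_predicted with 1 injection was -0.024 on processed signals. Leaving out an array of each pair gave -0.077 to 0.084 for Fech_predicted with 1 injection. It gave Alas1 -0.59 to 0.072 between the intact sexes, -0.18 to 0.51 with 1 injection and -0.77 to 0.066 with 2 injections. Between the intact sexes it gave -0.22 to 0.45 for alpha globin and -0.23 to 0.78 for Hbb-b1. The cause was not tested. No member has a further probe of its name, so that alternative was not run. The 2 arrays of a comparison limit the precision.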
